A study of Mus musculus with 12 samples.

Results

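The chemerin system is described here by 3 genes, the receptor Cmklr1, its ligand chemerin (Rarres2) and the chemerin-binding receptor Ccrl2, out of 24279 genes in the deposited tables. Cmklr1 was selected on its measured values in these libraries, which differed by genotype under moderate folic acid and also by folic acid level, and Rarres2 and Ccrl2 were taken for their roles beside it. All 3 members were in the tables, and 2 of them, Cmklr1 and Rarres2, passed the filter on low counts. The RNA-seq libraries hold polyadenylated RNA of primary embryonic fibroblasts, connective tissue cells cultured from mouse embryos of day 12.5. There were 4 groups of 3 libraries: wild type and Rsg1L3P/L3P mutant cells, each from F3 mice on moderate (2 ppm) or fortified (10 ppm) dietary folic acid. The moderate cells grew in DMEM with 225 ng/mL folic acid and the fortified cells in DMEM with 3600 ng/mL, so that effects of diet and of medium cannot be told apart. Whether replicate libraries stem from different embryos is not given in the labels. Xist and Y-linked transcripts differed among the libraries within each wild type group, so that these were not all repeats of 1 embryo or culture, while for the mutant groups the spread behind the p values may be technical.

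Chemerin is secreted as an inactive precursor, and proteases remove a short stretch at its carboxyl end to make it active. Active chemerin signals through Cmklr1, a receptor coupled to inhibitory G proteins that is best known from macrophages, dendritic cells and natural killer cells, and that is also made by adipocytes and other mesenchymal cells. Ccrl2 binds chemerin without signalling of its own and presents it to neighbouring cells. Gpr1 is the other known chemerin receptor. Chemerin was first found as a retinoid-induced gene and is also known as an adipokine.

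Library totals ran from 39339131 to 48475920 estimated counts, and 15186 genes were tested. On the first principal component fortified mutant 2 and 3 and moderate wild type 1 lay at the high end (48.1 to 68.0, against -68.6 to 4.74 for the other 9 libraries). Moderate wild type 2 and 3 lay as far out at the low end (-68.6 and -53.7). The 3 libraries at the high end are called the 3 libraries apart below. Leaving them out keeps those at the low end, and leaves fortified mutant 1 alone in its group. Xist was carried by all 6 mutant libraries and by moderate wild type 1 and fortified wild type 1, so that sex is partly confounded with genotype. Fits on the libraries with Xist thus hold 1 library in each wild type group. Moderate wild type 2 and 3 and fortified wild type 3 carried Y-linked transcripts instead. Fortified wild type 2 had 9 Xist counts and 0 counts of 4 Y-linked genes, so that these transcripts do not settle its sex. Rsg1 RNA measured 0.488 to 1.12 CPM (counts per 1000000 after TMM scaling) over the 12 libraries, and this level does not check the genotype. The fibroblast markers were present throughout: all 13 were tested, and their summed level was 6676 to 20127 TPM (a level per transcript length, scaled to 1000000 per library) per library.

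On mm10, Cmklr1 (ENSMUSG00000042190.12) lies on the minus strand of chromosome 5 from 113612354 to 113650426, and Rarres2 (ENSMUSG00000009281.6) on the minus strand of chromosome 6 from 48569696 to 48572789. Ccrl2 (ENSMUSG00000043953.12) lies on the minus strand of chromosome 9 from 111054486 to 111057519. Cmklr1 was the member with the widest absolute range of levels, from 6.09 to 30.9 CPM. As a fold, Ccrl2 had a wider one, from 0.0257 to 0.296 CPM on at most 13 counts. Because of the absolute range, the 250 bases before the Cmklr1 start in the RefSeq promoter table (GRCm38.p6, chr5:113643604-113643853, minus strand) are printed. They lie within the bounds of the Cmklr1 gene given above, and not before its outermost annotated start. CpG dinucleotides are in capitals.
Cmklr1 promoter: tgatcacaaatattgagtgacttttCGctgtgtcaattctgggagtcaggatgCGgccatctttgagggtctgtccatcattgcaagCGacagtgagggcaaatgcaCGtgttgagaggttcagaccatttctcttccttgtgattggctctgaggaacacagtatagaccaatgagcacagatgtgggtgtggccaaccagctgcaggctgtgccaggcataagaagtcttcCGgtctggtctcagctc
This stretch held 5 CpG, against a median of 6 over 32851 promoters of the same length. On both strands it had 1 match to the E-box CACGTG, which 6.02% of those promoters hold, and 2 to CCAAT, which 33.8% hold. It had 0 matches to the retinoid receptor motif AGGTCA (14.0% of promoters). These matches describe letters in the window, and no methylation or factor binding was measured. Of the other members, Ccrl2 had 3 entries in the table, and its stretches held 5, 6 and 7 CpG.

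Cmklr1, the signalling receptor, was lowest in moderate wild type cells, intermediate in moderate mutant cells, and highest in both genotypes under fortified folic acid. In moderate wild type libraries it measured 7.96, 6.09 and 6.72 CPM, and in moderate mutant libraries 14.99, 18.5 and 14.6 CPM. In fortified wild type libraries it measured 28.4, 29.2 and 30.9 CPM, and in fortified mutant libraries 24.9, 29.8 and 29.2 CPM. Every moderate library lay below every fortified one, as for 2.77% of tested genes. The 2 moderate genotypes did not overlap, whereas the 2 fortified genotypes did. The group means were 6.93 ± 0.95 (SD, n = 3), 16.03 ± 2.18, 29.5 ± 1.26 and 28.0 ± 2.68 CPM in the same order of groups.

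The values that led to the choice of Cmklr1 are given as a description, with no test. Its fitted log2 fold change for mutant over wild type was 1.21 (SE 0.17) under moderate folic acid, and 154 of 15186 genes had a larger positive one. Between fortified and moderate folic acid it was 2.09 (SE 0.17) in wild type cells, where 121 genes had a larger positive value, and 0.80 (SE 0.17) in mutant cells, where 1742 did. The genotype difference at fortified minus that at moderate folic acid was -1.29 (SE 0.24), a comparison in which edgeR called 0% of genes (6.68%, or 1015, at an unadjusted p under 0.05). In those comparisons edgeR called 0% of tested genes by genotype at moderate folic acid (7.87%, or 1195, at an unadjusted p under 0.05, and 50 genes by DESeq2), 0.0263% by folic acid in wild type cells (4 genes) and 6.93% by folic acid in mutant cells. Groups did not overlap, with the first higher, for 6.35%, 11% and 19.6% of genes respectively.

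For mutant over wild type under fortified folic acid, the Cmklr1 log2 fold change was -0.08 (SE 0.16), with a 95% interval from -0.44 to 0.28, or 0.739 to 1.22 times the wild type level. This value follows from the other fitted differences of Cmklr1 and is likewise a description, with no test. Of all tested genes, edgeR called 0% in this comparison (3.29%, or 500 genes, at an unadjusted p under 0.05, and 6 genes by DESeq2).

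On the TPM scale, per transcript length, Cmklr1 kept the order of its groups. Wild type cells held 5.12 ± 1.14 TPM at moderate and 19.9 ± 1.47 at fortified folic acid, and mutant cells 13.3 ± 2.14 and 18.4 ± 1.99. The share of tested genes with a lower mean TPM than Cmklr1 was 32.0% and 59.5% in moderate and fortified wild type cells, and 46.2% and 58.7% in the mutant ones. The TPM scale also moved the median of all genes, which was -0.30 between fortified and moderate mutant cells on log2(TPM + 0.1), against 0.04 in the edgeR fit. Relative to that median the Cmklr1 difference in mutant cells was 0.77, near its edgeR value.

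**Figure D1:**
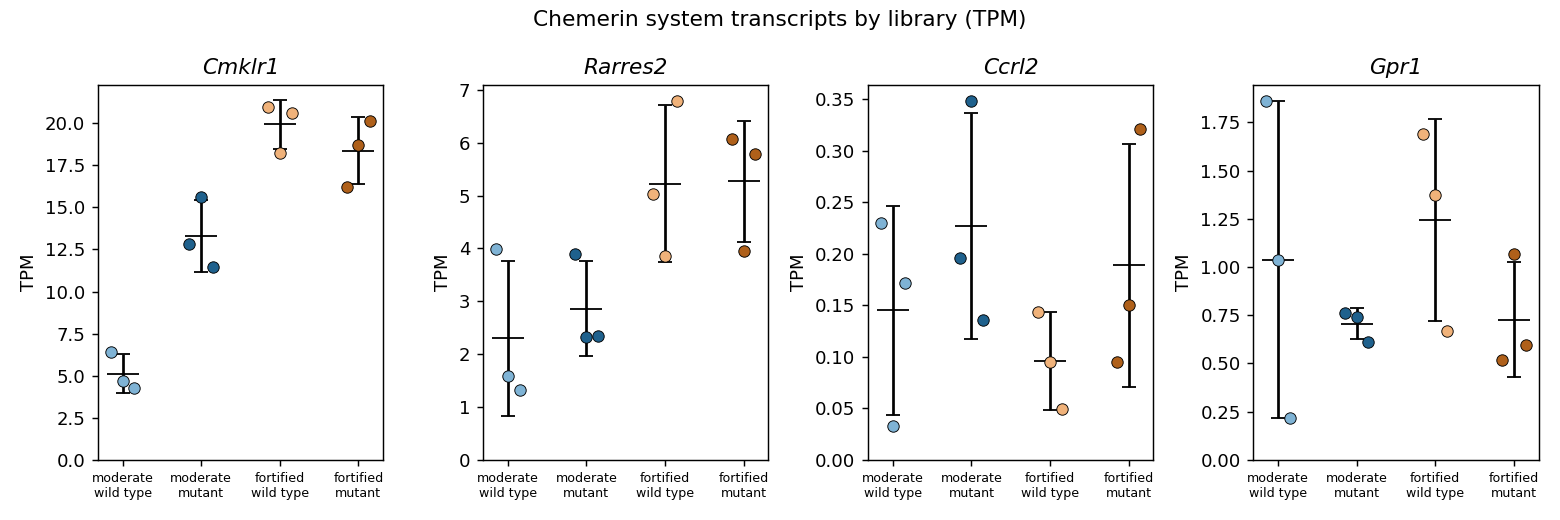
Deposited TPM (vertical axis, from 0, a separate scale per gene) of Cmklr1, Rarres2, Ccrl2 and Gpr1 in the 4 groups; points are libraries, and bars are the mean ± SD of 3. Cmklr1 stands at 5.12, 13.3, 19.9 and 18.4 TPM, while Ccrl2 stays under 0.35 TPM in every library.

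Rarres2, the ligand, had low levels that were higher at fortified folic acid in both genotypes and did not separate the genotypes. Moderate wild type libraries held 0.995, 0.411 and 0.413 CPM and moderate mutant libraries 0.916, 0.559 and 0.600 CPM. Fortified wild type libraries held 1.37, 1.22 and 2.05 CPM and fortified mutant libraries 1.88, 1.27 and 1.69 CPM. All 6 fortified libraries lay above all 6 moderate ones in CPM, as for 2.77% of tested genes. In TPM they overlapped, since moderate wild type 1 (3.99 TPM) exceeded fortified wild type 2 (3.85 TPM) and fortified mutant 2 (3.95 TPM). These CPM rest on 16 to 94 counts per library.

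Within each genotype the rise of Rarres2 did not pass the test over all genes. The log2 fold change with fortified folic acid was 1.35 (SE 0.45, edgeR adjusted p = 0.145) in wild type cells and 1.22 (SE 0.45, edgeR adjusted p = 0.113) in mutant cells. By DESeq2 both passed, with adjusted p = 0.0483 and 0.0438, and without moderate wild type 1 both passed by edgeR (1.90, adjusted p = 0.0331, and 1.21, adjusted p = 0.0492). Averaged over the genotypes, a comparison added after the data were seen, Rarres2 rose by a log2 fold change of 1.28 (SE 0.32, edgeR adjusted p = 0.0200), with a 95% interval from 0.59 to 1.97. In that average edgeR called 17.8% of genes, with 8.9% of all tested genes higher, and 336 genes had a larger positive change. The call ended without moderate mutant 2 (adjusted p = 0.0550), moderate mutant 3 (0.0537) or fortified wild type 3 (0.0543). Among the 8 libraries with Xist alone, which leave 1 library in each wild type group, the change was 0.83. Without the 3 libraries apart, which leaves fortified mutant 1 alone in its group, it was 1.65.

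Between genotypes Rarres2 differed by 0.19 (SE 0.45, edgeR adjusted p = 0.950) at moderate and by 0.06 (SE 0.43, adjusted p = 0.989) at fortified folic acid. The 95% intervals, from -0.79 to 1.17 and from -0.89 to 1.01, are wide, and a p that misses the threshold does not show equal levels. The 2 genotype differences themselves differed by -0.13 (SE 0.62, edgeR adjusted p = 0.961). In TPM the means were 2.30 ± 1.47, 2.86 ± 0.90, 5.23 ± 1.48 and 5.27 ± 1.15 in moderate wild type, moderate mutant, fortified wild type and fortified mutant cells.

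**Figure D2:**
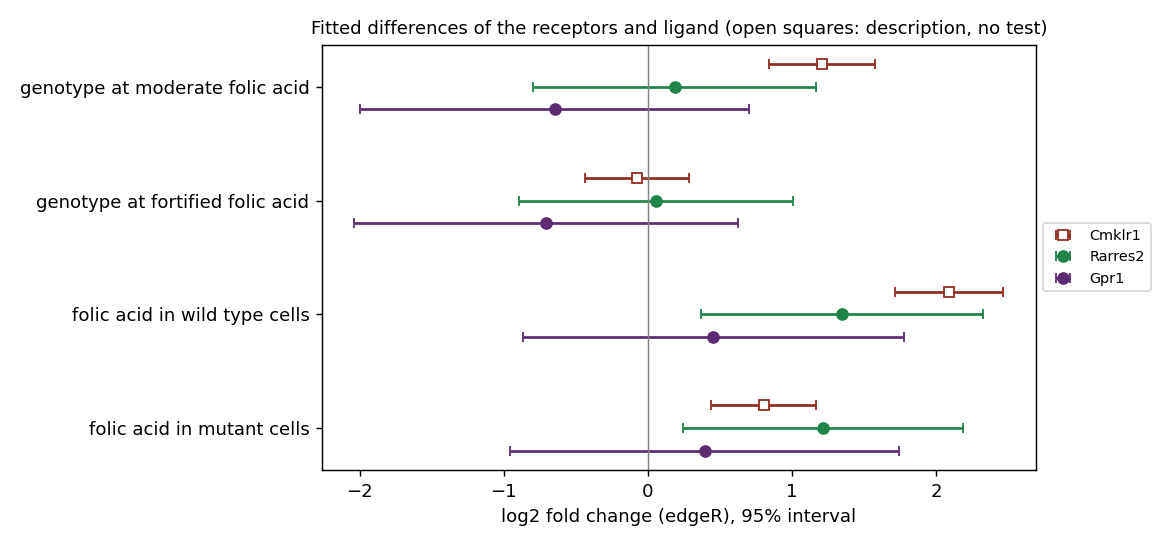
Fitted log2 fold changes (horizontal axis) with 95% intervals for Cmklr1, Rarres2 and Gpr1 in 4 comparisons; filled circles were tested, and open squares are the Cmklr1 values, given as a description. The Cmklr1 interval spans 0 by genotype at fortified folic acid, and both Rarres2 intervals by folic acid lie above 0 although neither passed the test over all genes.

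Receptor and ligand RNA were both higher at fortified folic acid, but only the receptor separated the moderate genotypes. Cmklr1 was chosen on such differences and Rarres2 was not, so this contrast between them is a description, with no test. In TPM, Cmklr1 exceeded Rarres2 in every library, by 1.61 to 6.70 times. The ratio averaged 2.60 ± 0.87 (SD, n = 3) and 3.98 ± 0.87 in moderate and fortified wild type cells, and 4.95 ± 1.71 and 3.63 ± 1.04 in the mutant ones. The moderate mutant libraries (3.29 to 6.70) lay just above the moderate wild type ones (1.61 to 3.25) in this ratio, and the other groups overlapped with them or with each other. The ratio holds the Cmklr1 values that chose the gene, and its separation of the moderate genotypes is likewise a description. As a description over 12 libraries that share groups and folic acid levels, log2 CPM of both genes had a Pearson r of 0.81 and a Spearman rho of 0.83. After each group's mean was removed, Pearson r was 0.27.

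**Figure D3:**
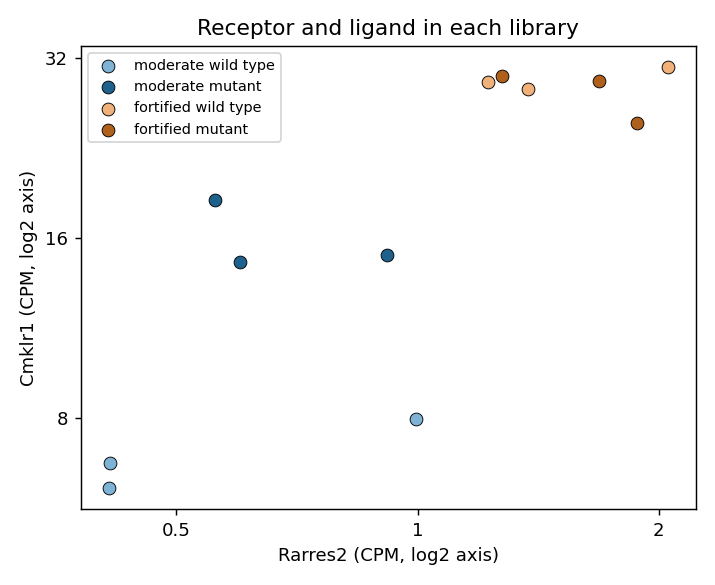
Cmklr1 against Rarres2 in each of the 12 libraries, in CPM on log2 axes, coloured by group. The fortified libraries lie together at the upper right (24.9 to 30.9 CPM of Cmklr1), and the moderate genotypes share a range of Rarres2 (0.411 to 0.995 CPM) at different levels of Cmklr1.

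Ccrl2, the receptor that binds chemerin without signalling, was near the lower end of detection in all groups. Its counts in wild type libraries were 9, 1 and 7 at moderate and 6, 4 and 2 at fortified folic acid. In mutant libraries they were 8, 11 and 5 at moderate and 5, 7 and 13 at fortified folic acid. These sum to 17, 12, 24 and 25 counts per group, and all groups overlapped. It stood below the filter on low counts and was not tested in the main fit. Without that filter, its log2 fold change for mutant over wild type was 0.48 (SE 0.75, edgeR adjusted p = 0.930) at moderate and 1.03 (SE 0.77, adjusted p = 0.930) at fortified folic acid. With folic acid it was -0.52 (SE 0.79, adjusted p = 0.774) in wild type and 0.03 (SE 0.74, adjusted p = 1) in mutant cells. No difference in Ccrl2 was detectable at this depth.

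Gpr1, the other chemerin receptor, was also scarce, at 0.216 to 1.86 TPM. It averaged 1.04 ± 0.82 and 1.25 ± 0.52 TPM in moderate and fortified wild type cells, and 0.705 ± 0.08 and 0.726 ± 0.30 TPM in the mutant ones, and the groups overlapped. Its log2 fold changes were -0.65 (SE 0.62, edgeR adjusted p = 0.836) and -0.71 (SE 0.61, adjusted p = 0.939) by genotype at moderate and fortified folic acid. By folic acid they were 0.45 (SE 0.61, adjusted p = 0.705) in wild type and 0.39 (SE 0.62, adjusted p = 0.736) in mutant cells. Cmklr1 thus had the highest TPM of the 3 receptors in every library.

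Of 19 genes for proteases that cleave chemerin or act on its carboxyl end, or that activate these, 7 were tested and 0 passed in any of the 4 comparisons. The lysosomal protease cathepsin L (Ctsl) was the most abundant, at 552 and 384 TPM in moderate and fortified wild type cells, and 602 and 253 TPM in the mutant ones. The urokinase gene Plau held 38.4 to 68.4 TPM as group means, the tissue plasminogen activator gene Plat 30.05 to 62.2 and cathepsin K (Ctsk) 17.2 to 34.3. Plasminogen (Plg), neutrophil elastase (Elane) and cathepsin G (Ctsg) had at most 2 counts in any library. The list's median log2 fold change was -0.56 and -0.45 by genotype at moderate and fortified folic acid, and -0.44 and 0.04 by folic acid in wild type and mutant cells. The median of all tested genes lay between -0.05 and 0.04 in these comparisons.

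Of the 21 listed genes of the retinoid pathway, 20 were tested, and 0 passed by genotype or by folic acid in wild type cells. The retinoic acid synthesising enzyme Aldh1a3 had log2 fold changes of 1.71 and 2.40 by folic acid in wild type and mutant cells (adjusted p = 0.184 and 0.0532). The most abundant were Crabp1, Crabp2, Rarg and Dhrs3, binding proteins, a receptor and a retinal reductase. Crabp1 had values of 1.72 and 1.80 by folic acid and of -1.60 and -1.52 by genotype, none passing. The retinoic acid receptor gene Rarb (-1.29 and 0.40) and the degrading enzyme Cyp26b1 (-0.13 and -0.22), both known to respond to retinoic acid, did not pass by folic acid. List medians by folic acid were 0.13 in wild type and 0.39 in mutant cells.

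Of 13 tested adipocyte genes, 2 rose and 1 fell with folic acid in mutant cells. Cebpd, an early adipogenic transcription factor, rose by 1.05 (SE 0.23, edgeR adjusted p = 0.0281) and the stearoyl desaturase gene Scd1 by 1.26 (SE 0.33, adjusted p = 0.0439). The transcription factor gene Klf5 fell by 1.24 on the log2 scale (SE 0.26, edgeR adjusted p = 0.0264). The other most abundant genes of the list were Fasn, Cebpb and Plin2, with values of 0.31, -1.50 and -0.27 in mutant cells, none passing. The adipocyte genes Adipoq and Plin1 had at most 10 and 13 counts in any library, and 3 of the 18 listed genes had under 10 in every library. Fabp4 and Lpl were present, at group means of 5.49 to 15.9 and 7.03 to 14.5 TPM. By genotype at moderate and fortified folic acid Fabp4 had -1.10 and -1.08 and Lpl -0.92 and -0.88, none passing. By folic acid the list median was 0.21 in mutant cells and 0.20 in wild type cells. The calls in mutant cells lie in a comparison where 6.93% of genes were called (4.19% higher and 2.74% lower). In that comparison 0 genes were called without moderate mutant 1 or without moderate mutant 2.

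None of the 23 tested genes of G protein, arrestin and kinase signalling passed in any comparison. Gnai2, the inhibitory G protein gene with the highest level, held 395 to 608 TPM as group means and had log2 fold changes of 0.75 (adjusted p = 0.101) and 0.43 (adjusted p = 0.220) by folic acid in wild type and mutant cells. Rhoa and Akt1, a small GTPase and a kinase, were the next most abundant, with values of 0.26 and 0.34 in wild type cells. The arrestin genes Arrb1 and Arrb2 had values of 0.26 and 0.21 there.

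Of the other chemoattractant receptors 10 of 17 were tested and 0 passed. The most abundant were Cx3cr1, Cxcr4, C3ar1 and C5ar1, at group means of 0.697 to 5.96 TPM, and the highest of them in moderate wild type cells (Cx3cr1, 4.22 TPM) lay near Cmklr1 there. Of 5 atypical chemokine receptors, which bind chemokines without G protein signalling, 4 were tested and 0 passed. Ackr4 (2.09, adjusted p = 0.0886) and Pitpnm3 (1.64, adjusted p = 0.0814) had the largest values by folic acid in wild type cells, and 1.18 and 0.81 in mutant cells. Ackr3 held 27.03 to 37.7 TPM as group means and Ackr1 0.630 to 2.44.

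**Figure D4:**
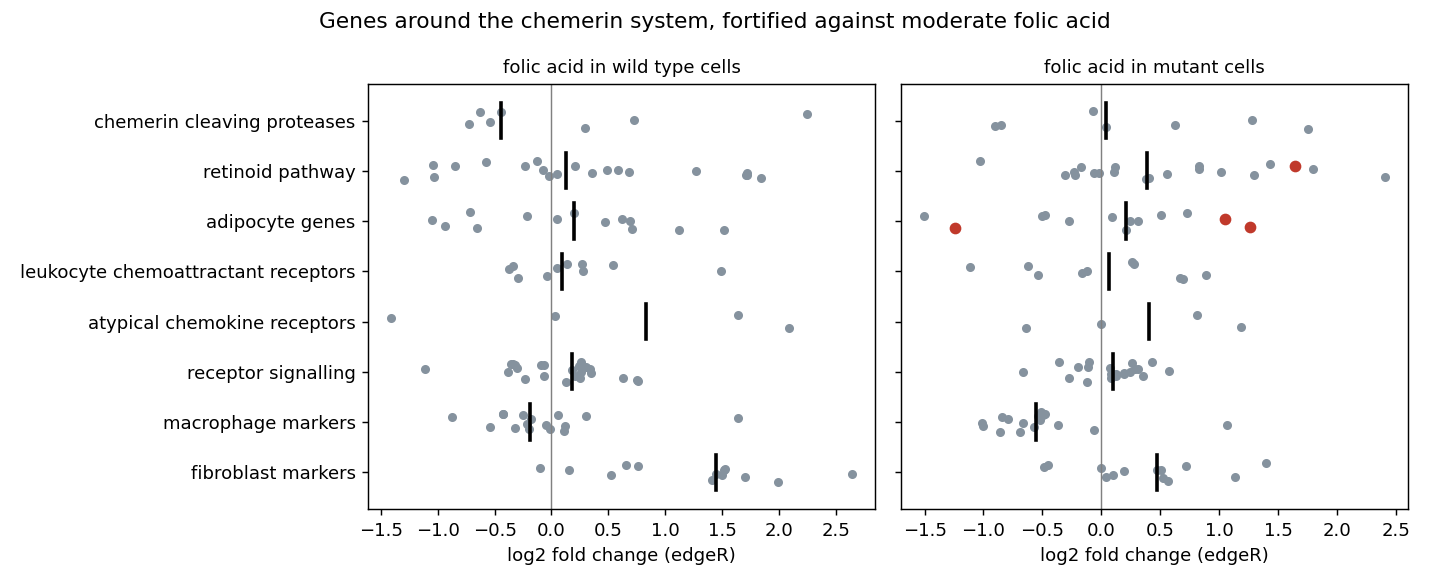
Log2 fold changes (horizontal axis) of the tested genes of 8 lists by folic acid in wild type (left) and mutant cells (right); points are genes, red points passed an adjusted p of 0.05 and black bars are list medians. Cebpd, Scd1 and Klf5 are among the red points, which are all in mutant cells.

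Macrophages, which carry Cmklr1 in many tissues, left transcripts in every library. All 16 macrophage markers were tested, none was at 0 in all libraries, and 0 passed in any comparison. Their summed level ran from 66.0 to 430 TPM in moderate and 131 to 356 in fortified wild type libraries, and from 64.5 to 360 and 73.5 to 118 TPM in the mutant ones. The 4 libraries with the highest sums differed widely in Cmklr1: moderate wild type 2 and 3 (430 and 418 TPM) had the lowest Cmklr1 of all libraries, 4.66 and 4.28 TPM. Moderate mutant 2 (360 TPM) had the highest Cmklr1 of its group, 15.6 TPM, and fortified wild type 1 (356 TPM) the highest of all libraries, 20.97 TPM. Fortified mutant libraries held 16.2 to 20.1 TPM of Cmklr1 at sums of 73.5 to 118 TPM. The list medians were -0.77 and -1.13 by genotype at moderate and fortified folic acid, with 14 and 16 of 16 values negative, and -0.19 and -0.55 by folic acid. In bulk RNA, fewer cells of a type and less RNA per cell cannot be told apart.

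Fibroblast markers had a median of 0.46 by genotype at moderate folic acid, -0.59 at fortified folic acid, 1.45 by folic acid in wild type and 0.47 in mutant cells, with 0 of 13 passing. The collagen genes Col1a1 and Col3a1 of this list, with 2.00 and 1.45 by folic acid in wild type cells (edgeR adjusted p = 0.0539 for both), had 0.52 and 0.10 in mutant cells. The part of these cell type markers in the Cmklr1 values was not tested. Of 12 markers of natural killer and dendritic cells 2 were tested and of 8 mast cell markers 1, and 3 in each list were at 0 in all libraries. Endothelial (9 tested), epithelial (9), smooth muscle and pericyte (11), skeletal muscle (15), neuron (12) and neural progenitor and glia markers (10) had 0 calls. Col11a1, a cartilage marker, had 1.46 by folic acid in wild type cells (adjusted p = 0.0503). In mutant cells Sox6 of 13 tested cartilage markers (-1.21, adjusted p = 0.0457) fell with folic acid.

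**Figure D5:**
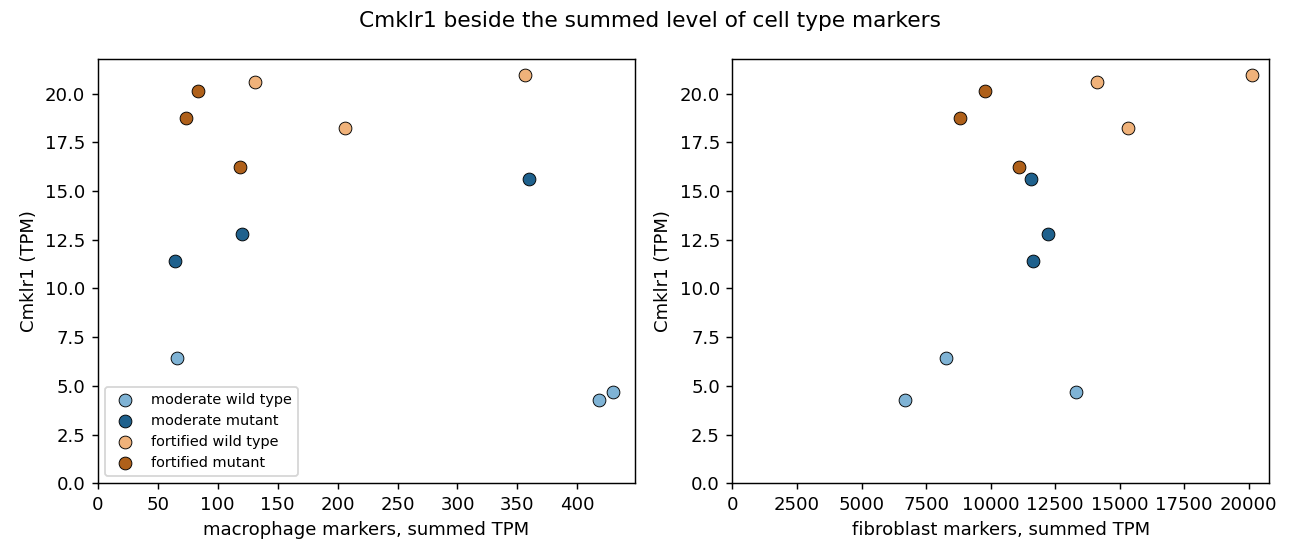
Cmklr1 (vertical axis, TPM) against the summed TPM of 16 macrophage markers (left) and 13 fibroblast markers (right) in each of the 12 libraries, coloured by group. The 4 highest macrophage sums (356 to 430 TPM) belong to libraries with the lowest Cmklr1 (4.28 and 4.66 TPM), the highest (20.97 TPM) and 15.6 TPM.

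The genes whose log2 CPM followed Cmklr1 most closely over the 12 libraries, among 10619 genes with a mean of at least 5 CPM, were Lrrc17, Cbr2, Heyl, Serpinh1 and Tmtc1 (Pearson r from 0.91 to 0.93). Serpinh1, the collagen chaperone HSP47, held 1662 ± 137, 2016 ± 88.7, 2884 ± 225 and 2507 ± 211 CPM in moderate wild type, moderate mutant, fortified wild type and fortified mutant cells. Heyl, a target of Notch signalling, held 5.83 ± 4.17, 13.6 ± 3.21, 23.5 ± 7.33 and 30.9 ± 10.5 CPM in the same order. Lrrc17, a secreted leucine-rich repeat protein, held 88.4 ± 33.0, 151 ± 24.8, 248 ± 57.3 and 224 ± 23.2 CPM. The lowest correlations belonged to Smug1, a uracil-DNA glycosylase, the microtubule-associated protein gene Map2 and the lysophosphatidic acid receptor gene Lpar2 (each -0.91). Lpar2 held 11.3 ± 0.74, 10.5 ± 0.60, 6.77 ± 0.47 and 7.14 ± 0.30 CPM, so that it followed folic acid more than genotype.

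For Rarres2 the closest were Cdk14, Maged2, Rgcc, Sdc1 and Nck2 (Pearson r from 0.96 to 0.97), and the lowest were Tufm, Mapkapk3 and Lrpprc (from -0.98 to -0.97). Rgcc, a regulator of the cell cycle, held 2.03 ± 0.68, 3.37 ± 1.08, 11.9 ± 5.03 and 12.6 ± 3.70 CPM in moderate wild type, moderate mutant, fortified wild type and fortified mutant cells. The heparan sulphate proteoglycan gene Sdc1 held 123 ± 23.0, 128 ± 16.1, 207 ± 43.1 and 204 ± 46.0 CPM. Tufm and Lrpprc, a mitochondrial elongation factor and a mitochondrial RNA-binding protein, ran the other way. Lrpprc held 123 ± 24.4 and 122 ± 14.0 CPM at moderate and 69.1 ± 12.9 and 66.0 ± 7.75 CPM at fortified folic acid. These genes were picked as the extremes of 10620 correlations, and the 12 points share their groups.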

How the data were processed

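The authors deposited expected counts and TPM per gene, in gene tables named as merged salmon output. The genome is mm10, per the submitters' processing notes; for salmon's version and annotation: not given in the sources used here. Each column was tied to its diet through the number given in the submitters' descriptions, since the letters B and P are unexplained. Libraries came from trizol-extracted polyadenylated RNA, per the labels' protocols. Counts were rounded and filtered with filterByExpr (at least 10 counts, total of at least 15), removing 9093 genes. An edgeR model with group means was fitted to the 12 libraries (edgeR 4.0.16, TMM, glmQLFit and glmQLFTest; R 4.3.3), with Benjamini-Hochberg adjustment over 15186 genes and a threshold of 0.05. CPM are per 1000000 counts; log2 CPM used a prior count of 2. The procedure was tested on simulated data. Alternatives used DESeq2 1.42.0, limma 3.58.1 (voom or log2 TPM), other scalings and filters, a replicate block, a sex covariate and left-out libraries. Counts of Ccrl2, Gpr1 and Rarres2 are low, and counting error bears on their values. The members, lists, named-gene rule and tests were chosen with earlier results of these data known. Named genes were the members, for each tested member the 5 highest and 3 lowest genes by Pearson r of log2 CPM (mean of at least 5 CPM), and list genes among the 4 highest TPM of a list, passing 0.05 or among the 5 smallest p of a comparison. Plg, Elane, Ctsg, Adipoq, Plin1, Aldh1a3, Rarb, Cyp26b1, Arrb1 and Arrb2 were named outside that rule, after their values were seen. Ccrl2 failed the filter, so its planned tests were run without it. The planned test of Cmklr1 by genotype at fortified folic acid is not used, because that value follows from those that chose the gene. Positions are from GENCODE M21 and promoter sequence from RefSeq (GRCm38.p6). Some list genes that the rule names are not reported here.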

Additional observations from a re-analysis of the deposited data

How the results depend on the processing

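By edgeR on counts, 0 genes were called by genotype at moderate or fortified folic acid (1195 and 500 at an unadjusted p under 0.05), against 50 and 6 by DESeq2. By folic acid in wild type cells 4 genes were called, against 1197 by DESeq2, 17 by limma-voom, 1 on log2(TPM + 1), 13 on log2(TPM + 0.1), 2 with library totals, 80 with no filter, 39 with a filter of 1 CPM, 13 with a sex-linked covariate, 0 among libraries with Xist, 1298 without the 3 libraries apart and 0 with only the groups compared. In mutant cells 1053 were called, against 2414 by DESeq2, 5273 by limma-voom, 2814 and 2805 on log2(TPM + 1) and log2(TPM + 0.1), 2045 among libraries with Xist and 2122 with only the groups compared. With a replicate block, 65 were called in wild type and 559 in mutant cells. After each group's mean was removed, same-numbered libraries of different groups correlated from -0.48 to 0.24, with 4 of 18 pairs over 0.1. Of the 12 libraries, 3 correlated best with their own number. These values gave no sign of a pairing by number, but with 3 libraries per group they cannot exclude it. Averaged over genotypes, 2696 were called. Leaving out 1 library gave 1 to 1012 calls by folic acid in wild type cells, 0 to 2073 in mutant cells and 1411 to 4025 on average. The cause of these shifts was not tested.

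For Cmklr1 the folic acid value in wild type cells was 1.79 on log2(TPM + 1). It was 1.84 among libraries with Xist, where 1 library stood against 1. In mutant cells it was 0.44 on log2(TPM + 1) and 0.47 on log2(TPM + 0.1). By genotype at fortified folic acid it ran from -0.14 to 0.00011 when 1 library was left out. Without the 3 libraries apart, with fortified mutant 1 alone in its group, it was 0.60 by folic acid in mutant cells and -0.26 by genotype at fortified folic acid. For Rarres2 the genotype value at moderate folic acid was -0.046 with the sex-linked covariate and -0.068 to 0.75 with 1 library left out. Among libraries with Xist it was -0.49, with moderate wild type 1 as the only wild type library of that comparison. At fortified folic acid it was -0.032 by limma-voom, -0.22 with the covariate, and -0.095 to 0.31 with 1 library left out. By folic acid Rarres2 passed at 1.32 (DESeq2) in wild type cells, and at 1.21 (DESeq2) and 1.01 (limma-voom) in mutant cells. Without the 3 libraries apart, which keeps moderate wild type 2 and 3, its value in wild type cells was 1.91. With 1 library left out the values ran from 1.09 to 1.90 in wild type and from 1.08 to 1.47 in mutant cells. The difference of its genotype values was -0.69 to 0.12 with 1 library left out, and the average over genotypes 1.15 to 1.56. Among libraries with Xist, which leave 1 library in each wild type group, they were 0.71 and 0.83. With a replicate block the average was 1.33 (edgeR adjusted p = 0.0214). Ccrl2 is limited by depth.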
